A study of Mus musculus with 7 samples.

Results

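Matrix proteases and their tissue inhibitors were followed in C2C12 cells, a mouse myoblast line that forms myotubes once serum is withdrawn, upon depletion of the long non-coding RNA lnc-SMaRT. The genes taken were Mmp2, Mmp9, Mmp11, Mmp14, Timp1, Timp2, Timp3, Adam12 and Adamts5, found by their symbols among the 11642 rows of the expression table. Of these 9 genes, 8 were listed and Mmp9, which encodes gelatinase B, was not listed. All 8 passed the filter on low values, a mean of at least 0.5 RPKM (reads scaled by gene length and library size), as did 11086 rows in all.

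Total RNA was sequenced on day 2 of differentiation in 2 samples treated with scramble siRNA (si-SCR) and 2 transfected with siRNA #1, directed against lnc-SMaRT (si-SMaRT). The labels give the same line and day for both groups and a difference in the transfected siRNA only, and the study describes the samples of a group as independent populations. RNA pulled down with probe set #1 against lnc-SMaRT and with probes against LacZ, with the input, made up 3 further libraries without replicates. The comparison rests on 1 siRNA, 1 line and 1 day, in unsorted cultures. By the study's read numbers, the first si-SMaRT sample lost a larger part of its reads as rRNA and tRNA than each other si-SCR or si-SMaRT sample. The part of this loss in the values below was not tested.

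The extracellular matrix is cut by secreted and membrane-bound zinc enzymes. Matrix metalloproteinases (MMPs) are made as inactive precursors, ADAMs are mostly membrane-bound relatives that shed cell surface proteins, and ADAMTS enzymes are secreted relatives that cut proteoglycans such as versican. Tissue inhibitors of metalloproteinases (TIMPs) block the active site of these enzymes, and in muscle both sides of this balance are known from myoblast migration, fusion and regeneration.

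The siRNA is shown because it is the only difference between the groups that the labels give. The first sequence below is its sense strand, in which capitals mark the bases that pair with the seed, bases 2 to 8 of the guide strand. The second is the stretch of the Adam12 3′UTR (GENCODE M21, GRCm38, sense strand) in which capitals mark the same 7 letters, in DNA code.
si-SMaRT-1: gagaagcagaacaAACAGAUa
Adam12 3′UTR: aacagtaAACAGATaaa
All 21 bases of the siRNA matched the transcripts of 1 gene, Gm14635, which is lnc-SMaRT, at position 878 of 1409. The letters AACAGAT, searched on the sense strand only, were found in the 3′UTR of 1 of the 9 genes, Adam12, at base 4734 of 4743. They were found in 1148 of 9658 searched 3′UTRs (11.9%), and a match describes the letters and not a site of action.

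Lnc-SMaRT itself was at 19.1 and 15.9 RPKM in si-SCR 1 and 2 and at 2.88 and 3.65 RPKM in si-SMaRT 1 and 2. It fell by 2.39 ± 0.28 (SE) on the log2 scale (limma with Benjamini-Hochberg adjustment, adjusted p = 0.000882), so the targeted RNA matched the labels. Of the 8 listed proteases and inhibitors, 0 passed the adjusted threshold of 0.05, where 56 of 11086 genes (0.505%) did. At an unadjusted p under 0.05 there were 4 of 8 (Timp1, Timp3, Adam12 and Adamts5), against 9.09% of all genes, and limma's voom test on reads recovered from the RPKM values also called 0 of 8, against 0.929% of all genes. The values of si-SMaRT did not overlap those of si-SCR for 5 of 8 genes, against 40.7% of all genes. Of these, Mmp2, Timp3, Adam12 and Adamts5 had the higher level in si-SMaRT, against 20.2% of all genes in that direction, and Timp1 had the lower level, against 20.4%.

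**Figure D1:**
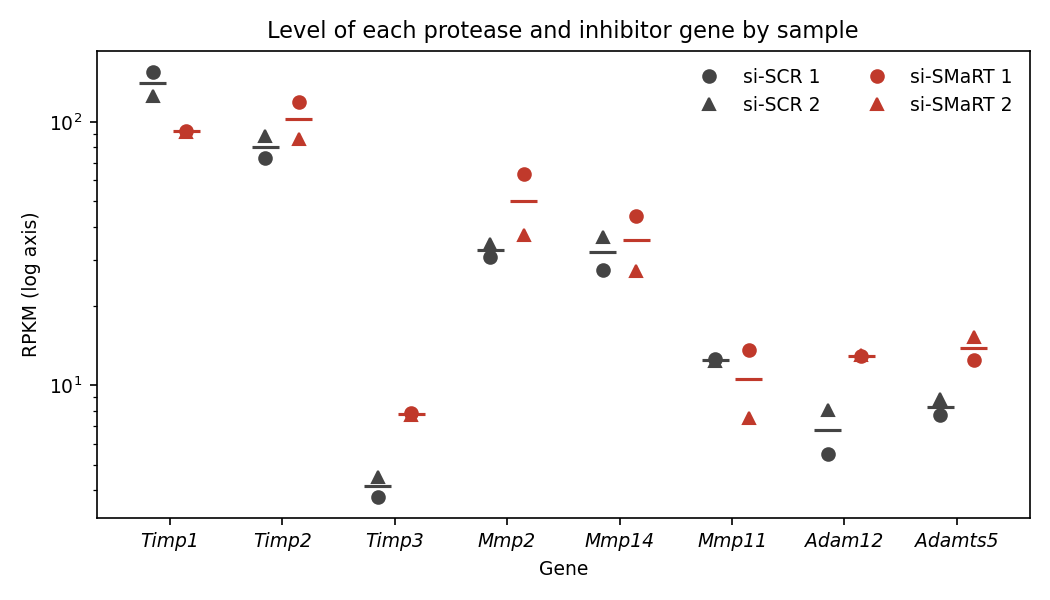
RPKM on a log axis of the 8 listed genes in each sample. Circles are the first and triangles the second sample of each group, and horizontal lines are group means. Both si-SMaRT samples lie above both si-SCR samples for Timp3, Mmp2, Adam12 and Adamts5 and below them for Timp1, and the si-SMaRT samples of Mmp2, Mmp14 and Mmp11 lie far from each other.

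Because RPKM is scaled by gene length, levels were set side by side. The values are as deposited, with no correction for the GC content of the genes, which is treated below. By the mean RPKM of all 4 samples the order was Timp1 (116.1), Timp2 (91.4), Mmp2 (41.4), Mmp14 (33.7), Mmp11 (11.5), Adamts5 (11.1), Adam12 (9.87) and Timp3 (5.96). Timp1 had a mean above that of 96.0% of the rows of the table and Timp3 above that of 45.5%. Neighbours in this order overlapped in their ranges over samples, except that every Timp2 value was above every Mmp2 value and every Mmp14 value above every Mmp11 value. The si-SCR means had the same order. In the si-SMaRT means Timp2 (102.4) stood above Timp1 (92.0), and Adamts5 (13.9) and Adam12 (13.0) above Mmp11 (10.5). Timp1 and Timp2 stood above all 3 listed MMPs in each sample.

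The inhibitors did not have a common direction. Timp1 (chrX:20870166-20874735, plus strand, GRCm38) encodes a secreted inhibitor with high affinity for pro-MMP9. It was at 154.5 and 125.7 RPKM in si-SCR and at 92.6 and 91.4 RPKM in si-SMaRT. Both depleted samples were below both controls and close to each other. The group means were 140.1 ± 20.3 and 92.0 ± 0.798 RPKM (SD, n = 2 each). The log2 fold change was -0.60 ± 0.27 (SE; limma, adjusted p = 0.499).

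Timp2 (chr11:118301069-118355740, minus strand) encodes the inhibitor that, bound to MMP14 at the cell surface, also presents pro-MMP2 for activation. It was at 72.6 and 88.3 RPKM in si-SCR and at 119 and 85.8 RPKM in si-SMaRT. The first depleted sample was the highest of the 4 and the second lay between the controls, so the groups overlapped. The log2 fold change was 0.34 ± 0.28 (SE; limma, adjusted p = 0.801), and it was 0.10 without si-SMaRT 1, 0.19 without si-SCR 1 and 0.57 without si-SMaRT 2.

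Timp3 (chr10:86300372-86349506, plus strand) encodes the inhibitor that binds to the matrix and also blocks several ADAM and ADAMTS enzymes. It was at 3.78 and 4.51 RPKM in si-SCR and at 7.84 and 7.72 RPKM in si-SMaRT. The depleted samples were nearly alike and both above the controls. The means were 4.15 ± 0.513 and 7.78 ± 0.0846 RPKM (SD, n = 2 each), a fold of 1.88. This was a log2 fold change of 0.90 ± 0.28 (SE; limma, adjusted p = 0.232). The Timp3 gene lies within Syn3 on the other strand, with 1733 exonic bases in common. Syn3 was not listed in the table. The study made the libraries with a stranded kit and aligned them as stranded, but the strand setting of the read counting is not given in the sources used here.

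Among the MMPs, Mmp2 (chr8:92827291-92853420, plus strand), which encodes gelatinase A, was at 30.7 and 34.5 RPKM in si-SCR and at 63.2 and 37.2 RPKM in si-SMaRT. The groups did not overlap, but the second depleted sample stood only slightly above the higher control. The means were 32.6 ± 2.70 and 50.2 ± 18.4 RPKM (SD, n = 2 each). Their log2 fold change was 0.57 ± 0.29 (SE; limma, adjusted p = 0.582). Left out one at a time, the depleted samples moved this value most. It was 0.96 without si-SMaRT 2 and 0.19 without si-SMaRT 1.

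Mmp14 (chr14:54431612-54445364, plus strand) encodes the membrane-bound MT1-MMP, a collagenase and the activator of pro-MMP2. It was at 27.4 and 36.5 RPKM in si-SCR and at 43.8 and 27.2 RPKM in si-SMaRT. The depleted samples held both the highest and the lowest value. The log2 fold change was 0.13 ± 0.29 (SE; limma, adjusted p = 0.940) and its sign turned, to -0.22 without si-SMaRT 1 and -0.08 without si-SCR 1.

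Mmp11 (chr10:75923222-75936496, minus strand) encodes stromelysin-3, an MMP that is cut to its active form by furin inside the cell. It was at 12.6 and 12.3 RPKM in si-SCR and at 13.6 and 7.52 RPKM in si-SMaRT. The controls were nearly alike and the depleted samples lay on either side of them. The log2 fold change was -0.30 ± 0.30 (SE; limma, adjusted p = 0.843), and without si-SMaRT 2 it was 0.12. Mmp11 shares 155 exonic bases with Chchd10 on the other strand, which was at 11.8 and 15.3 RPKM in si-SCR and at 7.26 and 3.79 RPKM in si-SMaRT. The libraries were stranded, but without the strand setting of the counting it is not known how reads on the shared bases were assigned.

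Adam12 (chr7:133883199-134232146, minus strand) encodes meltrin alpha, an ADAM known from myoblast fusion. It was at 5.47 and 8.08 RPKM in si-SCR and at 12.9 and 13.0 RPKM in si-SMaRT. The depleted samples were alike and above both controls, which differed 1.48-fold from each other. The means were 6.78 ± 1.84 and 13.0 ± 0.0748 RPKM (SD, n = 2 each). The log2 fold change of 0.95 ± 0.28 (SE; limma, adjusted p = 0.202) had the largest size among the 8 genes. Adam12, with the higher level in si-SMaRT, is the gene whose 3′UTR holds the seed match printed above.

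Adamts5 (chr16:85856173-85901828, minus strand) encodes a proteoglycanase that cuts versican and aggrecan. It was at 7.69 and 8.90 RPKM in si-SCR and at 12.5 and 15.3 RPKM in si-SMaRT. The groups did not overlap, and here the second depleted sample was the higher. The means were 8.29 ± 0.860 and 13.9 ± 1.99 RPKM (SD, n = 2 each). This gave a log2 fold change of 0.73 ± 0.27 (SE; limma, adjusted p = 0.343).

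The median log2 fold change of the 8 genes was 0.45, beside 0.02 over all rows tested. In 6 of 8 genes the mean log2 level was higher in si-SMaRT and in 2 of 8 it was lower, with the turns of sign given for Mmp14 and Mmp11. Of all 11086 rows tested, 5795 were higher and 5291 lower. The reads behind these values ranged from 277 for Mmp11 in si-SMaRT 2 to 5234 for Timp2 in si-SMaRT 1. For Mmp2, Mmp11, Mmp14, Adam12 and Adamts5 they are lower limits, and the voom test above weighted these genes by reads that may be too few.

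The depleted samples differed from each other with the GC content of the genes. Over 10864 genes, si-SMaRT 2 minus si-SMaRT 1 on the log2 scale had a Spearman correlation of -0.848 with GC content, and si-SCR 2 minus si-SCR 1 one of 0.380. Both are descriptions across genes that share 4 libraries. The proteases and inhibitors spanned this trend, from 43.7% GC in Adamts5, 46.8% in Timp3 and 49.8% in Adam12 to 52.8% in Timp1, 53.7% in Timp2, 54.3% in Mmp14, 55.3% in Mmp2 and 56.6% in Mmp11.

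**Figure D2:**
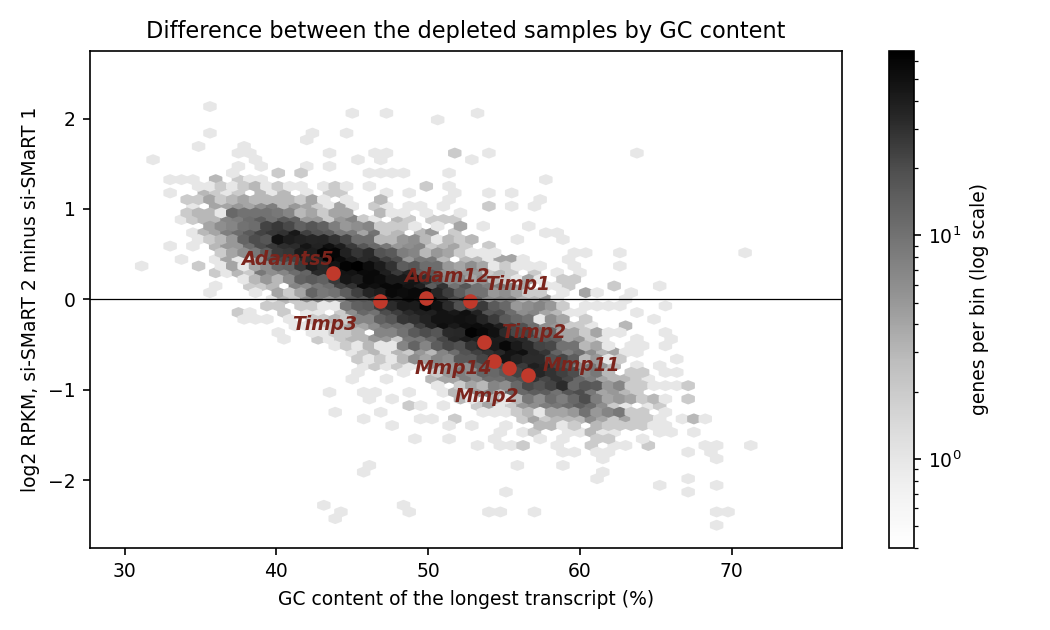
Difference between the depleted samples (log2 RPKM with 0.1 added, si-SMaRT 2 minus si-SMaRT 1) against the GC content of the longest transcript. Grey bins hold 10828 genes, with 36 further genes outside the axes, and the 8 listed genes are marked, from 0.29 for Adamts5 at 43.7% GC to -0.84 for Mmp11 at 56.6% GC.

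The gap between the depleted samples of a gene can be read against genes of like composition. Mmp2 was lower in si-SMaRT 2 than in si-SMaRT 1 by 0.76 on the log2 scale, beside a median of -0.52 over the 1018 genes within 1 percentage point of its GC content. Mmp14 had a difference of -0.69 beside a median of -0.42, and Mmp11 one of -0.84 beside -0.63. Timp1, with a difference of -0.02, lay above the median of -0.31 for its GC content. Adamts5 was higher in si-SMaRT 2 by 0.29, beside a median of 0.44.

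With the loess trend of each sample with GC content removed, 3 of the 8 genes passed the threshold, beside 4.49% of all genes, and all 3 were higher in si-SMaRT, beside 1.84% of all genes in that direction and 2.65% in the other. Mmp2 then had a log2 fold change of 0.68 ± 0.14 (SE; limma, adjusted p = 0.0356), with levels of 30.9 and 31.8 RPKM in si-SCR and 54.9 and 46.0 RPKM in si-SMaRT. Timp3 had 0.84 ± 0.16 (limma, adjusted p = 0.0313) and Adam12 0.93 ± 0.18 (limma, adjusted p = 0.0329). Adamts5 did not pass, at 0.63 ± 0.15 (limma, adjusted p = 0.0529), nor did Timp2, at 0.41 ± 0.14 (limma, adjusted p = 0.121). Timp1 was at -0.53 ± 0.17 (limma, adjusted p = 0.112), and the adjusted p-values of Mmp14 and Mmp11 were 0.422 and 0.452. The part of the GC trend in the values as deposited was not tested beyond this fit.

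**Figure D3:**
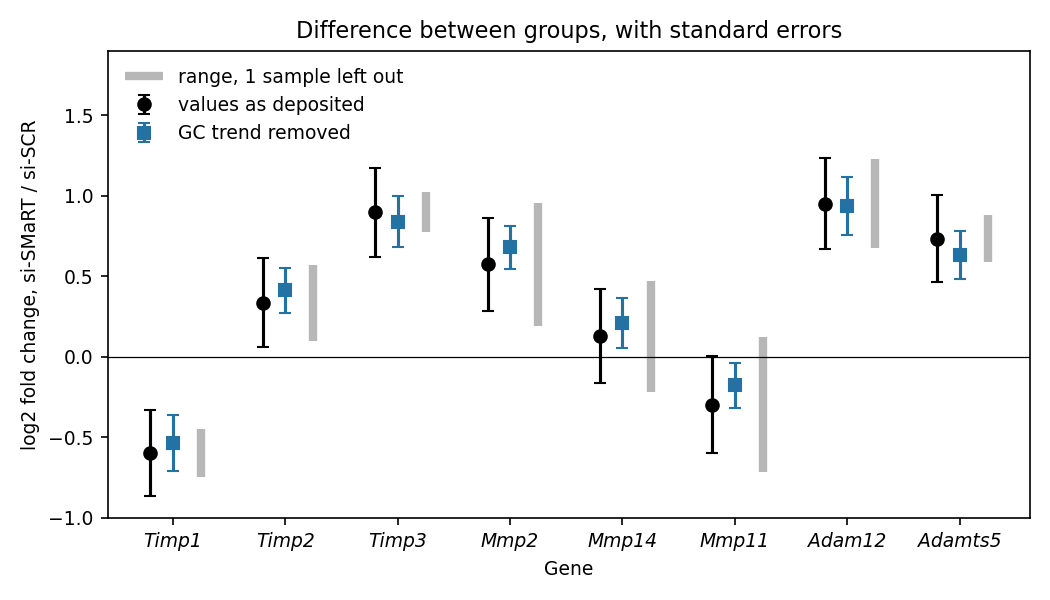
Log2 fold change of si-SMaRT over si-SCR for each gene, with standard errors, from the values as deposited (black circles) and with the GC trend removed (blue squares). Grey bars give the range of the deposited values with 1 sample left out in turn. The bars of Timp3 (0.77 to 1.02), Adam12 (0.67 to 1.23) and Adamts5 (0.59 to 0.88) stay above 0, and those of Mmp14 (-0.22 to 0.47) and Mmp11 (-0.72 to 0.12) cross it.

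With the values as deposited, calls depended on the depleted samples. Without si-SMaRT 2, Mmp2, Timp3 and Adam12 passed the threshold (3 of 8, beside 8.49% of all genes). Without si-SMaRT 1, Timp3, Adam12 and Adamts5 passed as higher and Timp1 and Mmp11 as lower (5 of 8, beside 26.2% of all genes). In either fit the spread came from the controls alone, and the lone depleted sample is assumed to vary as they do. Without si-SCR 1 or without si-SCR 2, 0 of 8 passed, beside 0.216% and 0.271% of all genes.

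The proteases and inhibitors were then weighed against each other within each sample. The summed RPKM of Mmp2, Mmp11 and Mmp14 was 70.6 and 83.3 in si-SCR and 120.6 and 71.9 in si-SMaRT. That of Timp1, Timp2 and Timp3 was 230.9 and 218.6 in si-SCR and 219.4 and 185.0 in si-SMaRT. In these values as deposited, the MMP sum was smaller than the TIMP sum in every sample. The excess of the MMP sum in si-SMaRT 1 was not seen in si-SMaRT 2. These sums and the ratios below were not formed with the GC trend removed. With it removed, Mmp2 was at 30.9 and 31.8 RPKM in si-SCR and at 54.9 and 46.0 RPKM in si-SMaRT. Mmp14 was then at 27.6 and 34.1 against 39.0 and 32.3 RPKM, and Mmp11 at 12.7 and 11.2 against 11.4 and 9.74 RPKM.

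**Figure D4:**
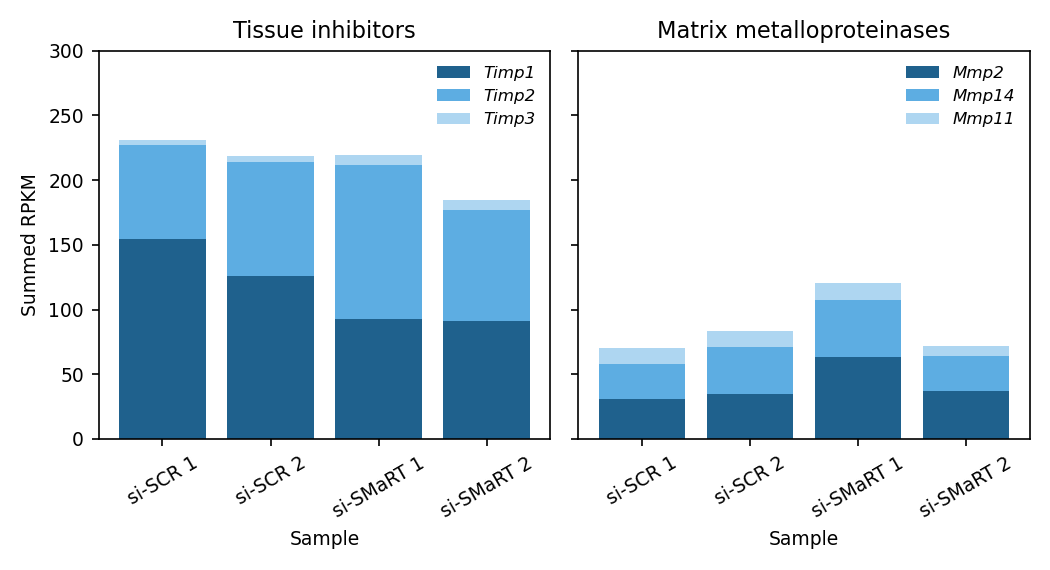
Summed RPKM, as deposited, of the 3 TIMP genes (left) and of the 3 listed MMP genes (right) in each sample. The part of each gene is a segment of the bar. The Timp1 segment is shorter in both si-SMaRT samples, and the MMP bar of si-SMaRT 1 reaches 120.6 where the others lie between 70.6 and 83.3.

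The ratio of the MMP sum to the TIMP sum was 0.306 and 0.381 in si-SCR and 0.550 and 0.389 in si-SMaRT. The groups did not overlap, though si-SCR 2 and si-SMaRT 2 were nearly equal, and the log2 difference was 0.44 with a pooled SD of 0.30. With 2 against 2 samples, an exact two-sided permutation test cannot go below p = 0.333, which is the value that this ratio and those below reached before any correction over the 4 ratios. The log2 difference was 0.19 without si-SMaRT 1 and 0.69 without si-SMaRT 2. With all listed MMP and TIMP genes in the sums it was 0.39, and the groups then overlapped (exact permutation p = 0.667).

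Mmp2 over Timp2 was 0.423 and 0.391 in si-SCR and 0.531 and 0.433 in si-SMaRT, higher in the depleted samples by 0.24 on the log2 scale. This difference was 0.09 without si-SMaRT 1 and 0.39 without si-SMaRT 2, and after quantile normalization the groups overlapped (exact permutation p = 0.667). Mmp14 over Timp2, the pair that meets at the cell surface, was 0.377 and 0.413 in si-SCR and 0.368 and 0.317 in si-SMaRT, lower by a log2 difference of -0.21 that was -0.10 without si-SMaRT 2 and -0.32 without si-SMaRT 1. Timp1 over Timp2, a ratio chosen after the values were seen, was 2.13 and 1.42 in si-SCR and 0.778 and 1.07 in si-SMaRT, with a log2 difference of -0.94. In the values as deposited the groups did not overlap in any of the 3.

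The make-up of both sums differed between the groups in each sample. Timp1 made 66.9% and 57.5% of the TIMP sum in si-SCR and 42.2% and 49.4% in si-SMaRT. Timp3 made 1.64% and 2.06% in si-SCR and 3.57% and 4.17% in si-SMaRT. Mmp2 made 43.4% and 41.4% of the MMP sum in si-SCR and 52.4% and 51.7% in si-SMaRT, so its share was alike in the 2 depleted samples while its RPKM was not. Mmp11 had the smallest share in every sample, 17.8% and 14.8% in si-SCR and 11.2% and 10.5% in si-SMaRT.

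Likeness of pattern was measured as the root mean square difference of log2 levels, each centred on the mean of its gene, over the 4 samples. Of the 28 pairs, Timp3 and Adam12 were nearest, at 0.112, followed by Mmp14 and Timp2 at 0.137 and Timp3 and Adamts5 at 0.139. The furthest pair was Timp1 and Adam12, at 0.831. Over all genes tested, those nearest to Adam12 were Tshz3 at 0.0560, E2f7 at 0.0603 and BC048403 at 0.0680. They were picked as the smallest of 11085 distances, each over 4 samples. The distance of a typical pair of genes was not measured, so these values and those of the 28 pairs describe likeness only. Tshz3, which encodes a zinc finger protein, was at 3.35 and 4.55 RPKM in si-SCR and at 7.16 and 7.61 RPKM in si-SMaRT.

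The families as a whole were counted in 7 lists of 93 genes, of which 57 were listed and 53 tested. These 53 hold the 8 genes described above, so the counts without them, over 45 genes, are given as well. In the values as deposited 0 of 53 genes passed the threshold (limma, beside 0.505% of all genes) and 0 passed with voom (beside 0.929%). An unadjusted p under 0.05 was found for 11 of 53 genes and for 7 of the 45, beside 9.09% of all genes. The median log2 fold change was 0.12 over the 53 and 0.08 over the 45, beside 0.02 over all rows tested. Of the 45 genes, 26 were higher and 19 lower in si-SMaRT, beside 5795 higher and 5291 lower of all 11086 rows tested. With the GC trend removed, 7 of the 53 passed, beside 4.49% of all genes, each of them higher in si-SMaRT, beside 1.84% in that direction. Of these 7, Mmp2, Timp3 and Adam12 were described above, and the 4 of the 45 were Adam23, Adamts2, Adamtsl3 and Cav1.

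Among the MMPs, 8 of 23 genes were listed and 7 tested, with a median log2 fold change of 0.13. Of the TIMPs and Reck, a membrane-anchored inhibitor, 4 of 5 were listed, and Timp4 was not. Reck was at 0.165 to 0.222 RPKM, under the filter. Of the ADAMs, 9 of 12 were listed and 8 tested, with a median of 0.14. The largest log2 fold change of all lists was that of Adam23, which encodes an ADAM without protease activity. Adam23 was at 0.662 and 0.684 RPKM in si-SCR and at 1.66 and 1.39 RPKM in si-SMaRT, with a log2 fold change of 1.07 ± 0.33 (SE; limma, adjusted p = 0.228). Adam12 was the next.

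Of the ADAMTS enzymes, 11 of 19 were listed and all of these tested, with a median of 0.03. Adamts2, which cuts the amino end of procollagen, was at 3.27 and 3.54 RPKM in si-SCR and at 7.71 and 4.74 RPKM in si-SMaRT, and is named for its call with the GC trend removed (0.0230 as adjusted p from limma). Of the ADAMTS-like proteins, which lack the protease domain, 4 of 5 were listed and 3 tested. Adamtsl3 was at 2.38 and 2.10 RPKM in si-SCR and at 4.87 and 3.77 RPKM in si-SMaRT, which gave a log2 fold change of 0.91 ± 0.29 (SE; limma, adjusted p = 0.258). Both Adamtsl3 and Adam23 passed the threshold without si-SMaRT 1 and without si-SMaRT 2.

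Of the genes for activation and pericellular proteolysis, such as furin and the plasminogen activators, 12 of 20 were listed and tested, with a median of 0.16 and 0 at an unadjusted p under 0.05. All 9 cell surface partners were listed and tested, with a median of -0.04. Among them were the genes with the highest levels of all lists. Cd63, whose product binds TIMP1 at the cell surface, was at 637 and 622 RPKM in si-SCR and at 525 and 534 RPKM in si-SMaRT. On the log2 scale the difference was -0.25 ± 0.28 (SE; limma, adjusted p = 0.857), and 0.03 after quantile normalization. Bsg, which encodes basigin, an inducer of MMPs, had a log2 fold change of -0.53 ± 0.28 (SE; limma, adjusted p = 0.596), which passed the threshold without si-SMaRT 1, at -0.70 (limma, adjusted p = 0.0249). Itgb1, which encodes integrin beta 1, had one of -0.04 (limma, adjusted p = 0.982) that was 0.16 after quantile normalization. The lowest log2 fold change was that of Cd151, a tetraspanin gene, at -0.69 ± 0.28 (SE; limma, adjusted p = 0.424), followed by Timp1 and Bsg. The Cd151 value was -0.38 without si-SMaRT 2 and passed the threshold without si-SMaRT 1, at -1.0 (limma, adjusted p = 1.98e-05), and with the GC trend removed and the replicate block, at -0.61 (limma, adjusted p = 0.0474).

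**Figure D5:**
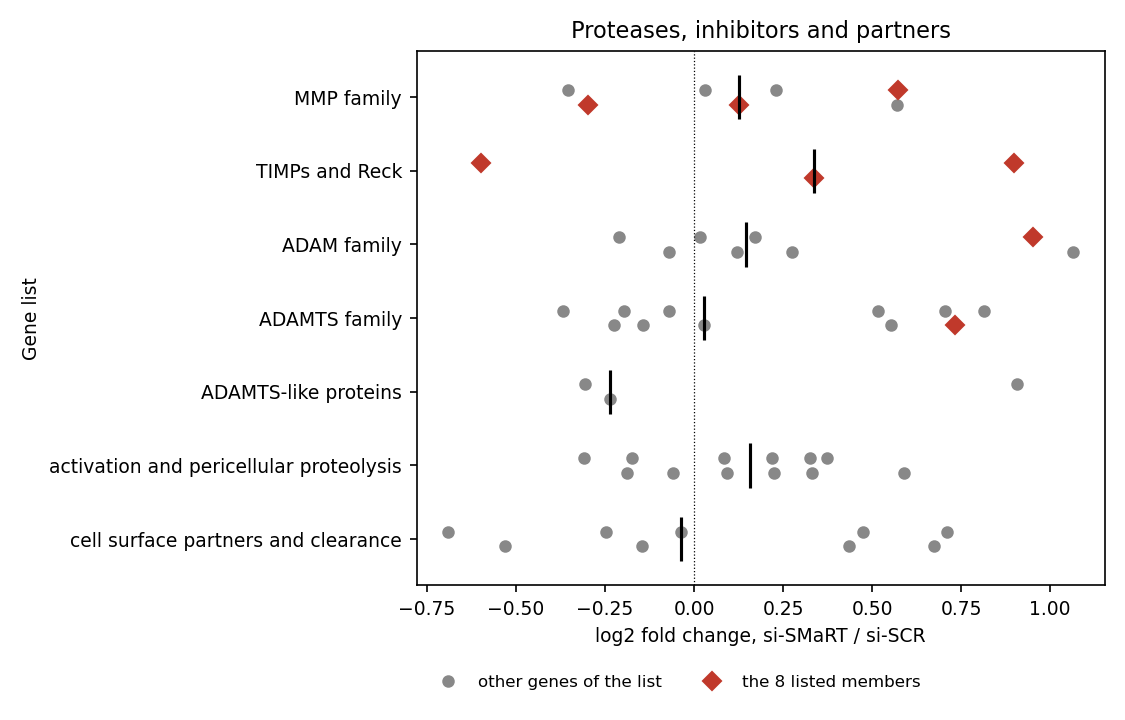
Log2 fold change of si-SMaRT over si-SCR of each tested gene in the 7 lists, from the values as deposited. Red diamonds are the 8 proteases and inhibitors followed here, grey circles the other genes of a list, and black lines the median of each list. The medians lie between -0.24 for the ADAMTS-like proteins and 0.34 for the TIMPs.

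The identity of the cells was checked with marker genes. All 8 markers of differentiating myoblasts were listed, with a summed level of 8257 and 8628 RPKM in si-SCR and of 6217 and 4161 RPKM in si-SMaRT, and 7 of 8 had the lower mean log2 level in si-SMaRT. Of the fibroblast markers 2 of 5 were listed, with Thy1, Lum and Dpt not listed. Their sum was 65.9 and 56.3 RPKM in si-SCR and 103 and 149 RPKM in si-SMaRT, nearly all of it Dcn. All these sums are from the values as deposited, and Dcn has a GC content of only 37.4%. With the GC trend removed, the log2 fold change of Dcn was 0.85, beside 1.03 as deposited. The median of the myoblast markers was then -0.51, beside -0.61 as deposited. Of the macrophage markers 2 of 5 were listed, at a sum of 1.14 to 1.63 RPKM, with Ptprc, Adgre1 and Csf1r not listed. Of the endothelial markers 0 of 4 were listed, of the adipocyte markers 1 of 4, at 1.16 to 1.97 RPKM, and of the bone and cartilage markers 2 of 7, at a sum of 3.36 to 4.50 RPKM. The part of the myoblast and fibroblast markers in the values of the proteases and inhibitors was not tested, and in bulk RNA fewer cells of a type and less RNA per cell cannot be told apart.

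Peaks called on the pulled-down RNA were set against the 9 genes. Of 345 peaks of the lnc-SMaRT pull-down, 0 overlapped an exon of these genes on the same strand, and of 336 peaks of the LacZ pull-down also 0. The count was also 0 with whole gene bodies in both lists. The share of all genes that hold a peak was not counted, so 0 of 9 does not set these genes apart from others. With 1 library each and called peaks only, binding below the peak caller's threshold was not detectable.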

How the data were processed

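Total RNA of 4 C2C12 samples (2 si-SCR, 2 si-SMaRT) and 3 pull-down libraries were sequenced. The authors trimmed reads with Trimmomatic, removed rRNA and tRNA with Bowtie2, aligned to GRCm38 with TopHat2, counted with htseq-count, dropped genes of low CPM, normalized by TMM and deposited RPKM values calculated with edgeR. The deposited peak lists give a p-value per peak, made by the authors with Piranha.

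The test was limma 3.58.1 (R 4.3.3), with lmFit and a trended eBayes, on log2(RPKM + 0.1) of the rows with a mean of at least 0.5 RPKM, adjusted over all rows by Benjamini-Hochberg, with a threshold of 0.05. Fold changes on this scale understate those of low genes. Read numbers were recovered from the steps between RPKM values for 11639 of 11642 rows, with effective library sizes of 11291255 to 14312935 reads. GENCODE M21 lengths fixed the common factor of 6136 rows, and for the others the reads given to voom are lower limits. The GC content was that of the longest GENCODE M21 transcript, and its trend was removed by loess (span 0.3). The fit was tested on simulated reads that held no GC trend. The recovery of reads was tested on simulated reads only up to the common factor of a row. Neither test covers the GC trend of these samples or the factors left unfixed.

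The genes named were the 9 proteases and inhibitors, lnc-SMaRT, and from the wider lists those past the threshold, the 5 of highest level and the 3 of highest and 3 of lowest fold change. For likeness they were the 3 nearest pairs and the 3 genes nearest to Adam12. Adamts2, Cav1, Reck and Chchd10 were added after their values were seen. The members and lists were chosen with earlier results of these data known. Alternatives were pseudocounts of 1 and 0.01, no filter and a minimum of 1 RPKM, quantile normalization, no variance trend, a replicate block, each sample left out, the GC trend removed, voom on the recovered reads, gene bodies and a peak p under 0.001. For the ratio of the sums, all listed MMP and TIMP genes were also taken. Mmp9 over Timp1 could not be made, protein sequences were not used here, and the input library was not analysed here.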

Additional observations from a re-analysis of the deposited data

How the results depend on the processing

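The number of genes past the threshold was 56 in the main fit, 23 after quantile normalization, 96 with the replicate block, 103 with voom, 488 with the GC trend removed and 623 with that and the replicate block, and 24 to 2908 with 1 sample left out. The share of higher calls was 35.7% in the main fit, 19.8% with the block and 16.7%, 10%, 43.1% and 58.7% without si-SCR 1, si-SCR 2, si-SMaRT 1 and si-SMaRT 2. Of the 8 proteases and inhibitors, 0 passed in the main fit and with the block (0.866% of all genes), 3 with the GC trend removed, 3 with that and the block (5.73%), and 0 to 5 with 1 sample left out. In the wider lists of 53 genes, which hold these 8, the counts were 0, 7, 8 and 0 to 22. The 22 came without si-SMaRT 1, where 26.2% of all genes passed, and 10 without si-SMaRT 2 stood beside 8.49%. Same-numbered samples deviated from their group means with a correlation of -0.36. With 2 samples per group this value cannot decide whether the numbers pair the samples, and the main fit did not pair them. A block that crosses the numbers, chosen after seeing the data, called 487 genes (4.39%), 2 of the 8 and 5 of the wider lists. With 1 sample left out, the log2 fold change lay between -0.72 and 0.12 for Mmp11, -0.22 and 0.47 for Mmp14 and -0.25 and 0.18 for Itgb1. Quantile normalization turned Cd63 to 0.026 and Itgb1 to 0.16. The 3 ratios other than Timp1 over Timp2, for which no alternative was run, kept their sign with each sample left out and after quantile normalization. No ratio was formed with the GC trend removed. The peak counts stayed at 0. With 2 samples per group the calls rest on a spread shared across genes, and the intervals of reads would cover counting error only.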
